A study of Bombyx mori with 9 samples.

Results

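The genes described here are 17 Bombyx mori gene models whose deposited descriptions name them as homeobox proteins, zinc finger proteins or transcription factors. They were found by searching the descriptions of the 14623 BGIBMGA genes for 7 words or phrases. Of these, homeodomain, homeotic, nuclear receptor and POU (4) matched no gene. The members were 10 homeobox genes (6 special homeobox genes and 4 models of engrailed or invected), 2 zinc finger genes and 5 genes described as transcription factors. SGF1, SGF3, FMBP-1 and USP were to be left out as known regulators of silk genes or hormone response, but none of their descriptions held a searched word, so this removed 0 genes. Only 1099 of the 14623 genes carried a description, and a factor without one could not be a member.

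The samples were RNA libraries of the silk gland from 3 pure silkworm strains, A306, A798 and XH, with 3 libraries each. The larvae had been fed under the same regulated conditions and were taken on day 5 of the fifth instar, the last larval stage, and the labels name no treatment. The submitters had chosen the strains for their gland weight, which was lowest in A306 (0.688 ± 0.0207 g, mean ± SD of 3 samples, each the mean of its stated weights). It was 0.974 ± 0.00850 g for XH, and A798 had the heaviest glands at 1.28 ± 0.0309 g. The weights of each pair of strains did not overlap (p = 0.1 by an exact permutation test, two-sided, the smallest that 3 samples against 3 allow). The labels give neither the sex of the larvae, nor the part of the gland, nor how many larvae stood behind a library. The p-values below therefore rest on variation among libraries, and part or all of it may be technical.

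The silk gland is a long paired tube of a single layer of very large polyploid cells. Its posterior part makes fibroin, its middle part makes the sericin glue, and its anterior part is a duct. These territories are laid down in the embryo by patterning factors, and some factors of that kind stay active in the larval gland, where they bind the promoters of silk genes. Homeobox genes encode proteins that bind DNA through a homeodomain. The bZIP factors bind DNA as dimers through a basic region joined to a leucine zipper. Zinc fingers are small metal-holding folds that occur in proteins that bind DNA, RNA or other proteins.

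Expression was given as FPKM, fragments scaled to transcript length and to the mapped fragments of the library, and sequencing depth was not recovered from it. Summed FPKM ranged from 502510 to 587872 among libraries. Models of ribosomal RNA took 19.6% of the sum in A798 replicate 3 and between 5.05% and 11.3% in the other libraries. The medians of the tested features on the log2 scale were highest in A306, at 2.74 to 2.78, followed by XH at 2.66 to 2.69 and A798 at 2.40 to 2.46, and the median change of all features is given with each comparison below. The 3 matched genes of the fibroin complex, which mark the tissue, summed to at least 24248 FPKM in every library, and no sericin gene was matched by name. Because these are bulk samples, fewer cells of a type and less RNA per cell cannot be told apart.

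Of the 17 members 8 were expressed in the gland, that is, they reached 1 FPKM in at least 3 of the 9 libraries. This was 47.1% of the members, beside 50.5% of the 1099 genes with a description and 31.5% of all 14623 genes. The expressed members were the engrailed models BGIBMGA009798, BGIBMGA009644 and EN (BGIBMGA009797), the bZIP factors CBZ (BGIBMGA006415) and C/EBPG (BGIBMGA004336), the Myb factor BMMYB (BGIBMGA013826), the transcription factor-like gene BGIBMGA007522 and the zinc finger gene BGIBMGA004191. Of the 9 members below the threshold, 6 were listed at 0 in all 9 libraries. A listed 0 need not mean that a transcript was lacking, since 7 ribosomal protein genes, which every cell uses, were also listed at 0 throughout.

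The homeobox members divided by kind. None (0) of the 6 special homeobox genes, which arose by gene duplication inside the Hox cluster of moths and butterflies, reached the threshold. SHX2, SHX3, SHX4 and SHX5 were listed at 0 in all 9 libraries. SHX1 was above 0 only in XH replicate 2, at 0.08 FPKM, and SHX8 only in XH replicate 1, at 0.05 FPKM. Of the 4 models named for engrailed or its sister gene invected, 3 were above 1 FPKM in every library. The invected model INV (BGIBMGA009643) was listed at 0 in all 9.

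Nearest to the threshold stood the Myb factor and a nanos gene. BMMYB passed with values of at least 1 FPKM in A306 replicates 2 and 3 and XH replicate 2. NANOSO (BGIBMGA002187) had its highest value, 0.75 FPKM, in A306 replicate 3 and its lowest, 0, in A798 replicate 1. Its name groups it with nanos, which in Drosophila is a germ line protein that represses translation and is no transcription factor, so it is a member by the word zinc finger alone. CROC (BGIBMGA013330), named for crocodile, a forkhead factor of head development in Drosophila, was listed at 0 throughout.

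Ranks of the expressed factors spanned almost the whole range of tested genes, though the highest gland transcripts lay far above their levels. The zinc finger gene BGIBMGA004191 had a mean of 623 FPKM over the 9 libraries and ranked 119 among 4612 tested genes. The other 7 lay far lower, at 27.8 FPKM for CBZ, 17.2 for BGIBMGA007522, 15.9 for BGIBMGA009798, 11.2 for BGIBMGA009644, 5.43 for EN, 5.07 for C/EBPG and 0.840 for BMMYB. The median tested gene had a mean of 5.43 FPKM, and the upper quartile began at 17.6. Of these 7 CBZ alone lay above that quartile, and BMMYB was higher than 4.86% of the tested genes. For the silk gene regulators SGF1 and SGF3, which activate fibroin and sericin genes, the means were 50.8 and 42.5 FPKM, above all members except BGIBMGA004191.

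**Figure D1:**
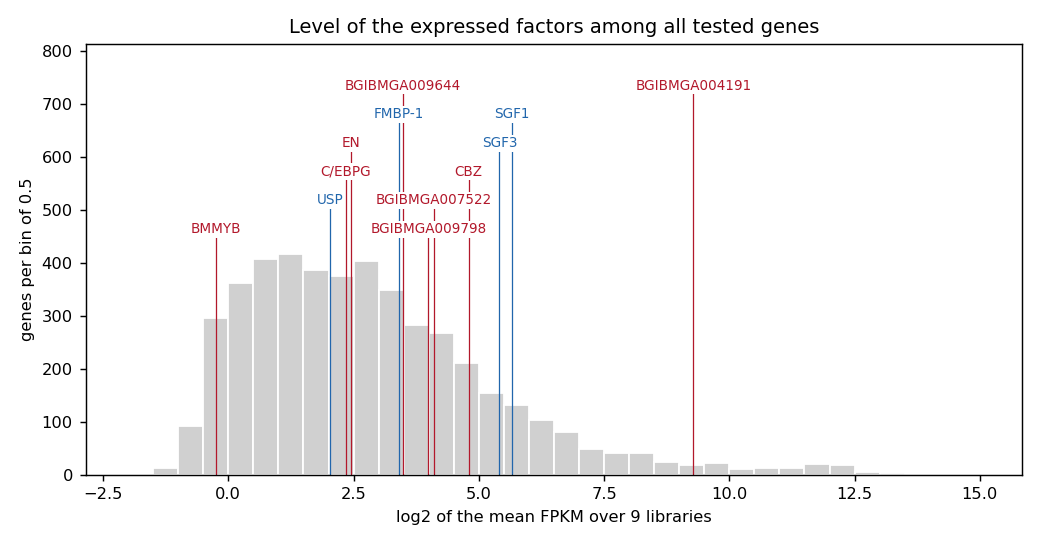
Histogram of the log2 mean FPKM over 9 libraries of the 4612 tested genes (x axis, log2 FPKM; y axis, genes per bin), with vertical lines at the 8 expressed members in red and at SGF1, SGF3, FMBP-1 and USP in blue. BGIBMGA004191, at 623 FPKM, stands far to the right of the other members, which lie between 0.840 and 27.8 FPKM.

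The strain comparisons asked which of these factors differ between glands of different weight. They were run on log2(FPKM + 1) with limma over all 4636 features that passed the threshold, with Benjamini-Hochberg adjustment over all of them. A call is an adjusted p below 0.05, with no minimum fold. On this scale the changes of low genes are understated. The comparisons of A306 and of XH with A798 share the A798 libraries and are not independent of each other.

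The 4 members that were neither engrailed models nor BMMYB were higher in A306, the strain with the lightest glands, than in A798, the strain with the heaviest. They were BGIBMGA004191, CBZ, BGIBMGA007522 and C/EBPG. The other 4 tested members did not pass, and none (0) was called lower. At an unadjusted p below 0.05 by limma 4 were higher and 0 lower. Of all 4636 features 37.9% were called higher and 9.6% lower in this comparison, so 4 calls among 8 members are near the background. Higher calls made up 79.8% of all calls as deposited and 47.6% under median centring. The median log2 change was 0.60 over the 8 members and 0.31 over all features. The same 4 members were those whose A306 libraries all lay above the A798 libraries, which held for 45.4% of all features; no member (0) had its A306 libraries all below, beside 11.3% of features.

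BGIBMGA004191, of which the description says no more than zinc finger protein, had the highest level of the members. Its FPKM were 865, 936 and 784 in the A306 libraries, 542, 549 and 529 in XH, and 457, 474 and 467 in A798. The strains did not overlap, and the 3 A306 libraries stood well apart from the other 6. The log2 change was 0.88 ± 0.0589 (SE) in A306 against A798, or 1.85-fold (limma adjusted p = 1.22e-05). Relative to the median of all features it was 0.58. Against XH the gene was 1.60-fold higher in A306 (log2 change 0.67 ± 0.0589, adjusted p = 6.08e-05). The difference between XH and A798 was small, 540.1 ± 10.3 against 466 ± 8.72 FPKM (log2 change 0.21, adjusted p = 0.0254). It lay 0.02 above the median change of all features, and it no longer passed in 10 of 17 alternative settings. Under median centring the log2 change was -0.026 (adjusted p = 0.794).

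CBZ, named as a chorion bZIP factor, belongs to a class of regulators studied in the follicle cells that make the eggshell of silkmoths. Its FPKM were 37.9, 33.7 and 35.6 in A306, 32.4, 33.3 and 30.1 in XH, and 17.0, 16.9 and 13.4 in A798. The lighter strains lay together, and all 3 A798 libraries lay below them. CBZ was 2.26-fold higher in A306 than in A798 (log2 change 1.14 ± 0.0984, limma adjusted p = 5.33e-05) and 2.02-fold higher in XH than in A798 (0.98 ± 0.0984, adjusted p = 0.000183). Both changes exceeded those of 91.5% and 92% of features and they kept their call in every alternative setting. Between A306 and XH the log2 difference was 0.16, with a 95% interval from -0.07 to 0.39 (adjusted p = 0.259), although the lowest A306 library, at 33.7 FPKM, lay just above the highest XH library, at 33.3.

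BGIBMGA007522, described as transcription factor-like, separated all 3 strains with little spread. Its FPKM were 23.1, 22.2 and 22.5 in A306, 16.6, 16.6 and 16.8 in XH, and 11.8, 13.1 and 12.03 in A798. Of 539 features within 0.5 of its level on the log2 scale, 1.67% had a smaller spread within strains. It was 1.83-fold higher in A306 than in A798 (log2 change 0.83 ± 0.0588, adjusted p = 1.76e-05 by limma). It was 1.36-fold higher in A306 than in XH (0.42, adjusted p = 0.00085) and 1.35-fold higher in XH than in A798 (0.41, adjusted p = 0.00121). The last call was lost under median centring, where the log2 change was 0.17 (adjusted p = 0.0616).

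C/EBPG is named for C/EBP gamma, which in mammals lacks an activation domain of its own and pairs with other bZIP proteins. It was low and uneven, at 5.64, 9.30 and 7.99 FPKM in A306, 3.84, 7.08 and 6.39 in XH, and 1.54, 0 and 3.84 in A798. The A306 libraries lay above those of A798, while the lowest XH library equalled the highest of A798. The log2 change in A306 against A798 was 1.88 ± 0.523 (limma adjusted p = 0.0191). Its size depends on the pseudocount, since 1 A798 library was listed at 0: it was 3.13 with a pseudocount of 0.1, where the call was lost (adjusted p = 0.0621). The call was also lost under median centring, under quantile normalization, without A306 replicate 2 and without A306 replicate 3, with adjusted p from 0.0517 to 0.0634. In XH against A798 the log2 change of 1.52 did not pass (limma adjusted p = 0.0577). A798 replicate 3 was the highest A798 library for this gene and the richest in ribosomal RNA models. Without it the change was 2.05 (adjusted p = 0.0128). Without A798 replicate 2, listed at 0, the change was 0.92 (adjusted p = 0.1). With a threshold of 5 FPKM in 3 libraries C/EBPG was called higher in XH (adjusted p = 0.0471).

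**Figure D2:**
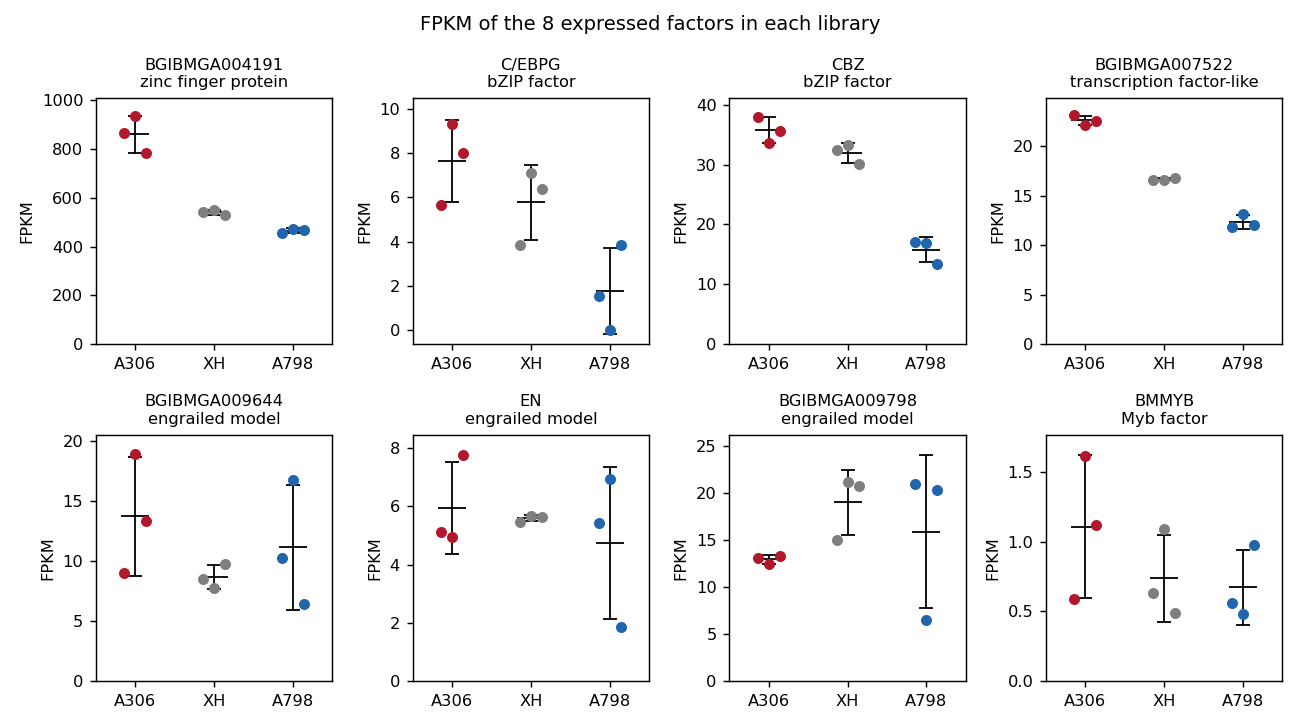
FPKM of the 8 expressed members (y axis, linear) in each library of the 3 strains (x axis); points are libraries, and bars are the mean ± SD of 3. For BGIBMGA004191, CBZ and BGIBMGA007522 all A306 libraries lie above all A798 libraries with narrow spread, while the engrailed models and BMMYB overlap between A306 and A798.

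The engrailed models did not pass in any comparison in the fit to all 9 libraries. Engrailed is a segment polarity gene of the insect embryo, and transcripts of engrailed and invected have been described in the Bombyx silk gland. EN was at 5.13, 4.94 and 7.77 FPKM in A306, 5.48, 5.68 and 5.62 in XH, and 5.42, 6.94 and 1.87 in A798. BGIBMGA009644 was at 9, 18.9 and 13.3 FPKM in A306, 8.45, 7.73 and 9.77 in XH, and 10.2, 16.7 and 6.37 in A798. BGIBMGA009798 was at 13.1, 12.4 and 13.3 FPKM in A306, 15.0, 21.2 and 20.7 in XH, and 20.9, 6.44 and 20.3 in A798. The strains overlapped for each model except BGIBMGA009798 between A306 and XH, and A798 had the widest spread for all 3.

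Intervals of the engrailed models were wide, so a moderate difference between strains was not detectable. In A306 against A798 the log2 changes were 0.38 for EN (95% interval -0.44 to 1.19, adjusted p = 0.418), 0.32 for BGIBMGA009644 (-0.47 to 1.11, adjusted p = 0.481) and -0.12 for BGIBMGA009798 (-1.01 to 0.77, adjusted p = 0.828), by limma. In XH against A798 they were 0.32, -0.24 and 0.39 (adjusted p = 0.531, 0.636 and 0.497). In A306 against XH they were 0.05, 0.56 and -0.51 (adjusted p = 0.931, 0.251 and 0.355). BGIBMGA009798 depended on single libraries: without A798 replicate 2 it was called lower in A306 than in A798 (log2 change -0.63, adjusted p = 0.0116). Its A306 libraries all lay below the XH libraries, and with those strains alone in the fit it was called lower in A306 (log2 change -0.51, adjusted p = 0.038).

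The sum of the 3 engrailed models was 32.6 ± 4.75 FPKM in A306, 33.2 ± 3.78 in XH and 31.7 ± 4.25 in A798 (mean ± SD, n = 3), and the strains overlapped over almost their whole ranges, from 27.2 to 36.2, 29.0 to 36.1 and 28.5 to 36.5 FPKM. The share of BGIBMGA009798 in the sum was 57.1%, 21.4% and 71.1% in the A798 libraries, and that of BGIBMGA009644 was 28.0%, 55.5% and 22.3%. In A306 the shares of BGIBMGA009798 were 48.1%, 34.3% and 38.6%, and in XH 51.9%, 61.2% and 57.4%. FPKM are scaled to the length of each model, so the sum is no transcript total if the models are parts of 1 gene. Engrailed and invected proteins are alike in their homeodomains, and the sources at hand do not say how the authors' quantification divided fragments between like models. The values of single engrailed models may therefore carry an uncertainty beyond their spread, which was not tested. Whether the models are parts of 1 gene was not tested either.

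**Figure D3:**
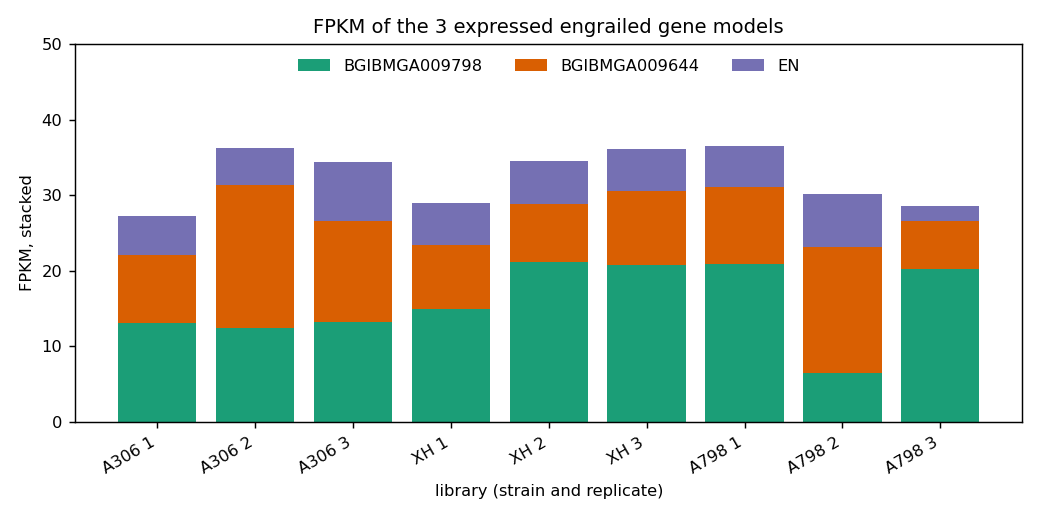
Stacked FPKM (y axis) of the 3 expressed engrailed gene models in each of the 9 libraries (x axis). The height of the bars runs from 27.2 to 36.5 FPKM in all strains, while the share of BGIBMGA009798 falls to 21.4% in A798 replicate 2 and reaches 71.1% in A798 replicate 3.

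BMMYB, a Myb factor of the family that in Drosophila takes part in control of cell cycle genes, was the lowest expressed member. Its FPKM were 0.590, 1.62 and 1.12 in A306, 0.630, 1.09 and 0.490 in XH, and 0.560, 0.480 and 0.980 in A798. All strains overlapped. The log2 changes were 0.32 in A306 against A798 (95% interval -0.22 to 0.85), 0.05 in XH against A798 (-0.48 to 0.58) and 0.27 in A306 against XH (-0.27 to 0.80), with limma adjusted p of 0.294, 0.899 and 0.413.

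In XH, the strain of intermediate gland weight, 3 members were called higher than in A798 and none (0) lower (at an unadjusted p below 0.05 4 were higher and 0 lower), namely CBZ, BGIBMGA007522 and BGIBMGA004191. Of all features 25.7% were called higher and 8.02% lower. The same 3 were the members without overlap between these strains, beside 34.9% of features higher and 11.4% lower without overlap. The median log2 change was 0.35 over the members and 0.19 over all features. Under median centring, which sets the medians of the libraries equal, 1 member was called higher, CBZ, beside 12.1% of all features.

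Between A306 and XH 2 members were called higher in A306, BGIBMGA004191 and BGIBMGA007522, and none (0) lower (at an unadjusted p below 0.05 2 were higher and 0 lower), where 23.1% of features were called higher and 13.4% lower. The libraries of 3 members lay higher without overlap, and of 1, BGIBMGA009798, lower; this compares with 32.1% and 18% of features. The median log2 change was 0.31 over the members and 0.12 over all features.

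**Figure D4:**
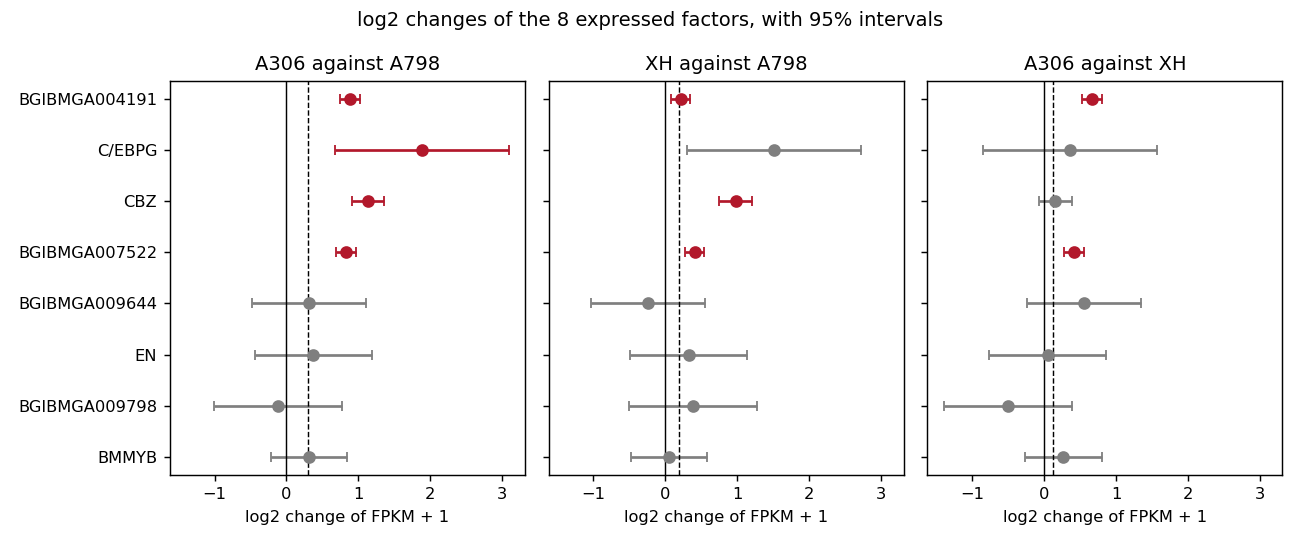
log2 change of FPKM + 1 (x axis) with 95% limma intervals for the 8 expressed members (y axis) in the 3 pairs of strains; red marks calls at an adjusted p below 0.05, and the dashed line is the median of all features. In A306 against A798 the 4 called members lie to the right of the median of 0.31, and the intervals of the engrailed models and BMMYB include 0.

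The means of 5 members stood in the order A306, XH, A798, the reverse of the order of gland weight: BGIBMGA004191, CBZ, BGIBMGA007522, C/EBPG and BMMYB. The library medians of all tested features stood in the same order. How many of all features had their means in this order was not determined, so the count has no background beside it. For BGIBMGA007522 and BGIBMGA004191 each step of this order was called as deposited. For CBZ the step from XH to A306 was not called, for C/EBPG only the difference between the ends was, and for BMMYB none was.

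Genes listed as markers of other tissues also differed between the strains, and their part in the members' values was not tested. Whether their transcripts came from other tissues or from a part of the gland itself was not tested either. Of 19 fat body and haemolymph genes 13 passed the threshold, and their summed FPKM was lowest in A306, from 70.9 to 77.3, and highest in XH, from 1799.8 to 1883, with A798 between them at 622 to 641. Of 5 muscle genes 3 passed. The muscle sums were 72.1 to 81.7, 68.7 to 72.7 and 38.5 to 44.0 FPKM, listed for A306, then XH, then A798. The sums below are listed by strain in the same sequence, whatever their size. Of 178 cuticle genes, listed for trachea and epidermis, 25 passed and 93 were at 0 throughout. Their sums were 12113 to 13469.6, 4280.1 to 4736 and 3482 to 3639.5 FPKM. The anterior duct of the gland could not be set apart from those tissues. Of 7 haemocyte genes 2 passed and 1 was at 0 throughout, with sums of 2.34 to 3.23, 6.90 to 7.34 and 2.15 to 2.62 FPKM. Of 7 genes matched as midgut markers, among them protease inhibitors matched by word alone, 3 passed and 1 was at 0, with sums of 61.9 to 65.5, 84.4 to 87.2 and 36.9 to 38.7 FPKM. Of 18 genes of the nervous system 4 passed and 5 were at 0, with sums of 79.6 to 114, 37.2 to 71.5 and 50.7 to 76.8 FPKM. Without A798 replicate 3 the members called higher in A306 against A798 were BGIBMGA004191, CBZ, BGIBMGA007522 and C/EBPG, as with it. Of all features 32.7% were then called higher in that comparison, and 21.4% in XH against A798. In XH against A798 without that library CBZ, BGIBMGA007522 and C/EBPG were called higher, and BGIBMGA004191 was not (limma adjusted p = 0.0615).

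The basal transcription machinery, on which all such factors act, was represented by 5 described genes. In A306 against A798 4 of the 5 were called higher, beside 37.9% of all features. The other, the initiation factor IIA subunit gene BGIBMGA005169, was uneven and not called (limma log2 change 1.09, adjusted p = 0.406). Its FPKM were 3.37, 12.39 and 0 in A306 and 5.04, 0 and 0 in A798. The RNA polymerase II subunit gene BGIBMGA004994 stood at 13.1 ± 0.511 against 6.73 ± 0.907 FPKM (n = 3; limma log2 change 0.87, adjusted p = 0.000659). The Mediator subunit gene IX, the elongation factor gene BGIBMGA006173 and TBP, the TATA-box-binding protein gene, changed by 0.63, 0.47 and 0.40. Under median centring and under quantile normalization 1 call was left of the 4, that of BGIBMGA004994, beside 16.4% and 17.2% of all features. With either other scaling tried 2 were left, beside 25.2% and 25.4% of all features. Without A306 replicate 1, A306 replicate 2 or A798 replicate 2 there were also 2, beside 31.7%, 32.1% and 35%. In XH against A798 3 of the 5 were called higher, BGIBMGA004994 (0.78), BGIBMGA006173 (0.48) and TBP (0.36), beside 25.7% of all features. Of these calls 1, again BGIBMGA004994, was left under median centring, under quantile normalization and with the replicate number as a block. Of all features 12.1%, 14% and 22.5% were then called higher. Without A798 replicate 1, A798 replicate 2 or XH replicate 3, 1 call was left, beside 22.6%, 22.7% and 19% of all features. None (0) of the 5 was called between A306 and XH by limma, where 1 passed at an unadjusted p below 0.05. Without A306 replicate 3, 2 were called higher in A306, beside 18.6% of all features. The median change of the list was 0.63 in A306 and 0.36 in XH against A798, beside 0.31 and 0.19 over all features.

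Neither of the 2 histone deacetylase genes, the only chromatin regulators found by description, passed in any comparison in the fit to all 9 libraries. Without A798 replicate 1, 1 of them was called higher in A306 than in A798, beside 35.2% of features. BGIBMGA013166 averaged 6.80 ± 0.763 FPKM in A306, 5.26 ± 0.463 in XH and 5.30 ± 1.92 in A798, and BGIBMGA011747 ranged from 0.49 to 3.65 FPKM over the 9 libraries. Among 5 genes matched as other DNA-binding factors, 2 passed the threshold. HMGA, an architectural protein of chromatin, was not called in any comparison, and its libraries ranged from 9.29 to 30.89 FPKM. The second, HMG-S_BM, was matched by its name alone and encodes a metabolic enzyme; it was called higher in A306 and in XH than in A798 (limma log2 changes 0.91 and 0.63, adjusted p = 0.000294 and 0.00307). RUN, named for the pair-rule gene runt, was listed at 0 in all libraries, and the nuclear hormone receptor gene BMO.11, named for HR38, did not exceed 0.07 FPKM.

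For comparison, SGF1 and FMBP-1 were not called in any pair of strains. SGF3 was at 45.8 ± 3.93 FPKM in A306, 37.1 ± 1.88 in XH and 44.8 ± 1.69 in A798, and was called higher in A306 than in XH (limma log2 change 0.29, adjusted p = 0.0142) and lower in XH than in A798 (-0.27, adjusted p = 0.0238). The A306 libraries held USP at 14.45, 12.69 and 9.70 FPKM, and the other 6 listed it at 0.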

How the data were processed

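The authors deposited FPKM values to 2 decimals for 15745 features in 9 libraries. Tools listed in the submitters' processing notes were DESeq2 1.24.0, fastp 0.19.5 and StringTie 1.3.3b. The aligner, build and annotation: not given in the sources used here. A second table, named for raw counts, holds the same FPKM of 5 genes (largest difference 0). The strain-mean columns (6) were not used. Steps of single fragments were sought in 342 features of low values. In 4 of them the largest value was at most 1.15 times the lowest above 0. That check misses steps where libraries differ in fragment number or depth, so it cannot show that steps are absent. Depth was not recovered, and no count test was run.

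The 4636 features that reached 1 FPKM in 3 or more libraries were fitted as log2(FPKM + 1) with limma 3.58.1 in R 4.3.3, all 9 libraries in one fit with an intensity trend, two-sided, after testing on simulated data. Every tested member was named by rule, as were undetected homeobox genes and called genes of the further lists. The members and lists were chosen with earlier results of these data known. No member identifier (0) matched the RefSeq table, so no positions or sequences are given. Alternatives changed pseudocount, filter, scaling, variance model, libraries and a replicate block.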

Additional observations from a re-analysis of the deposited data

How the results depend on the processing

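Counts of members expressed ran from 7 to 8 with 1 library left out, and were 3 when only the words homeobox, homeodomain, homeotic and POU were searched. Members called higher in A306 against A798 ran from 3 to 4 and lower from 0 to 1 with 1 library left out. In XH against A798 they ran from 2 to 3 and 0 to 0, and in A306 against XH from 2 to 2 and 0 to 0. Of all features 31.7% to 35.2%, 19% to 22.7% and 17.7% to 21.2% were called higher in these comparisons. Lower calls numbered 364 to 414, 266 to 317 and 471 to 558 among the 4467 to 4547 features tested. Median centring left 1 member called higher in XH against A798, beside 12.1% of features, and quantile normalization left 2, beside 14%. In A306 against A798 each of these scalings left 3 of 8 members called higher, beside 16.4% and 17.2% of features. With only A306 and XH in the fit 1 member was called lower in A306, beside 615 of 4636 features. Without C/EBPG, the 1 tested member listed at 0 in a library, 3 of 7 were called higher in A306 against A798, beside 37.9% of features. That alternative was chosen after seeing the data.

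Sign changes concerned members that had not been called, with 1 exception: BGIBMGA004191 in XH against A798 was -0.026 under median centring. In A306 against A798 BGIBMGA009644 was -0.00719 under median centring and -0.036 under quantile normalization, and BMMYB -0.0087 under median centring. BMMYB in XH against A798 was -0.19 and -0.13 under these scalings. EN in A306 against XH was -0.034 under median centring, -0.024 under quantile normalization, -0.034 with an equal sum outside the 20 most abundant features, and -0.048 without the ENSRNA features. With 1 library left out, the changes in A306 against A798 ran from -0.063 to 0.67 for EN and from -0.63 to 0.15 for BGIBMGA009798. In XH against A798 they ran from -0.55 to 0.079 for BGIBMGA009644, from -0.12 to 0.62 for EN, from -0.13 to 0.65 for BGIBMGA009798 and from -0.032 to 0.18 for BMMYB. In A306 against XH they ran from -0.13 to 0.15 for EN. The causes were not tested.

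The share of higher calls among all calls in A306 against A798 was 79.8% as deposited, 47.6% under median centring and 53.5% under quantile normalization; in XH against A798 it was 76.2%, 44.1% and 52.2%, and in A306 against XH 63.3%, 54% and 52.4%. The labels do not say whether same-numbered replicates shared anything beyond the number. Deviations of same-numbered libraries from their strain means correlated at 0.000389 to 0.0626 across features, which cannot show that nothing was shared. With the replicate numbers as a block 4, 3 and 2 members were called higher in the 3 comparisons and 0 lower. Of all features 35.9%, 22.5% and 21.4% were called higher with that block, and 414, 346 and 596 of 4636 lower. FPKM carry no depth, so counting error could not be set apart from the spread.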
